A study of Mus musculus with 8 samples.

Results

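The genes described here encode the lecticans and their partners in the perineuronal net: the lecticans Acan (aggrecan), Bcan (brevican), Ncan (neurocan) and Vcan (versican), the link proteins Hapln1 and Hapln4, and the tenascins Tnr and Tnc. The members were taken by gene name from the expression values of mouse brain cortex, and 7 of the 8 listed genes have a row among the 13996 genes given. Acan was not analysed here. All 7 passed the filter on low values, a mean of at least 1 FPKM with no 0 in any mouse, which 13982 genes passed in all.

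Cortexes were compared between 4 normal mice and 4 high fat diet fed (HFD) mice, all male C57BL/6. Both groups entered the experiment at 8 weeks of age and were sampled when 16 weeks old, and during the 8 weeks between they ate a conventional diet (Normal) or a diet of 60% fat by weight (HFD). RNA was extracted from homogenized cortex, and 1 stranded library was made per mouse from total RNA after removal of rRNA. The p-values therefore measure the spread between mice with 1 library each.

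Perineuronal nets are lattices of extracellular matrix around the soma and proximal dendrites of certain neurons, in the cortex chiefly the fast-spiking interneurons that express parvalbumin. Hyaluronan forms the backbone of the net. Lecticans, which are core proteins carrying chondroitin sulfate chains, bind hyaluronan through one end of the molecule, link proteins stabilise that contact, and tenascin-R joins the other ends of the lecticans into a mesh. The same lecticans also occur in the looser matrix between cells, around synapses and at nodes of Ranvier, so the RNA of these genes is not a measure of nets alone.

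Each lectican gene lies next to a link protein gene. In GENCODE M21 on GRCm38, Vcan (ENSMUSG00000021614.16, chromosome 13, 89655312 to 89742509, minus strand) and Hapln1 (ENSMUSG00000021613.9, chromosome 13, 89539796 to 89611652, plus strand) are separated by 43659 bp, with no coding gene between them and with their 3′ ends facing. Ncan (ENSMUSG00000002341.8, chromosome 8, 70093085 to 70120873, minus strand) and Hapln4 (ENSMUSG00000007594.10, chromosome 8, 70083457 to 70090862, plus strand) face each other in the same way across 2222 bp. Bcan (ENSMUSG00000004892.13, chromosome 3, 87987531 to 88000230, minus strand) lies 21519 bp from Hapln2, the link protein gene of myelinated axons, on the same strand, and Acan lies 2 bp from Hapln3 on chromosome 7. The tenascin genes stand alone, Tnr (ENSMUSG00000015829.13) on chromosome 1, 159523769 to 159931729, plus strand, and Tnc (ENSMUSG00000028364.15) on chromosome 4, 63959785 to 64047015, minus strand. Antisense transcripts are annotated across Vcan (Gm4117) and Tnr (Gm38039), and 8030451A03Rik runs opposite to Tnc. Whether the counting used strand is not stated, so reads of these pairs might not be told apart.

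The promoters of Vcan and Tnc are shown because these genes had the largest log2 fold changes of the members. The sequences are the 250 bases before the transcription start given by RefSeq on GRCm38.p6, read 5′ to 3′ in the direction of transcription. For Vcan this is chr13:89742513-89742762 on the minus strand, and the start lies 3 bp from the gene end in GENCODE. For Tnc it is chr4:64047016-64047265 on the minus strand, directly before the gene end in GENCODE. RefSeq gives Tnc a further start 79 bp downstream, whose window of 300 bases has 54.0% GC, with the same GC box and TATA box letters at −246 and −205. Capitals mark matches to the TATA box (TATAAA), the CCAAT box (CCAAT) and the GC box (GGGCGG), each searched on both strands, and no match overlaps another.
Vcan: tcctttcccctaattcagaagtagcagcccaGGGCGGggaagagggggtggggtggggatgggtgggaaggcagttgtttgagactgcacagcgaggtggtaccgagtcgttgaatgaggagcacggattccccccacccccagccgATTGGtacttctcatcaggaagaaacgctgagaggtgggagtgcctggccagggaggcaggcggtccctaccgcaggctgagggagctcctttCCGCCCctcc
Tnc: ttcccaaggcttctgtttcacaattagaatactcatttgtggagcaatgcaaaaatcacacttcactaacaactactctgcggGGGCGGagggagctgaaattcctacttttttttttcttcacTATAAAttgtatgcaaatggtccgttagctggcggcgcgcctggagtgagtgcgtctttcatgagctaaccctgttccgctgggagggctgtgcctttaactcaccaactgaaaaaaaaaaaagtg

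The Vcan promoter held GC box letters beginning at −219 from the start. On the other strand it held GC box letters (CCGCCC) at −10 and CCAAT box letters (ATTGG) at −103. The Tnc promoter held GC box letters at −167 and TATA box letters at −126. These letters are common: of 32851 RefSeq promoters of 300 bases (250 before to 50 after the start), 35.7% held the GC box, 37.4% the CCAAT box and 13.6% the TATA box. An AP-1 site (TGANTCA), found in 7.81% of the promoters, was in neither. GC made up 61.0% of the Vcan window of 300 bases and 47.3% of that of Tnc, where the median promoter had 52.7%. The matches are a description of the letters in these windows.

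The values are FPKM, in which sequenced fragments are divided by transcript length and by the mapped reads of the library, rounded to 0.1, and the read depth behind them is unknown. FPKM summed to between 562431 and 639142 per mouse. Markers of brain regions outside the cortex differed between and within the diets. The summed FPKM of 5 cerebellar markers was 13.8, 206.8, 285.2 and 60.9 in normal mice 1 to 4 and 9.8 to 12.8 in HFD mice, and 3 of the 4 markers tested fell by limma. Gabra6, of the cerebellar granule cell, was listed at 0 in HFD mouse 1. The summed FPKM of 5 thalamic markers was 32.6, 83.2, 71.3 and 22.7 in normal mice and 19.4 to 22.7 in HFD mice, with 2 of 5 lower by limma. The 6 striatal markers summed to 184.2 to 344.7 FPKM in normal and 50.3 to 60.6 in HFD mice, and all 6 fell by limma. Markers of cortical excitatory neurons, the defining cells of the labelled tissue, summed to 416.1 to 592.6 and 639.8 to 806.4, with 5 of 6 higher by limma. The striatal sums were above those of the HFD mice in every normal mouse and highest in normal mouse 1, so the diet and the striatal markers cannot be told apart. Normal mice 2 and 3 stood apart from the rest in the cerebellar and thalamic sums, and each result on the members is given with and without them. Normal mouse 4, which stays in, was also above the HFD mice in the cerebellar sum, at 60.9 FPKM. The part of these markers in the results was not tested beyond these fits.

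The levels of the 7 members, which FPKM allows to be compared because it corrects for length, ran in the order Bcan, Ncan, Tnr, Hapln4, Vcan, Hapln1 and Tnc in both diets. Mean levels spanned from 59.4 FPKM for Bcan to 2.43 FPKM for Tnc in normal mice, and from 57.2 to 1.33 FPKM in HFD mice. The widest step between neighbours separated Hapln4 from Vcan, 4.47-fold in normal and 5.32-fold in HFD mice. The ranges of Tnr and Hapln4 overlapped in both diets, and so did those of Vcan and Hapln1. Within mice, Tnr was above Hapln4 in 3 of 4 normal and 4 of 4 HFD mice, while Vcan and Hapln1 had no fixed order in either diet. Brevican, neurocan, tenascin-R and Hapln4 RNAs thus stood above those of Vcan, Hapln1 and Tnc. Vcan and Tnc are known for the matrix of the developing brain. Neurocan is also most abundant before adulthood, and Hapln1 is also a component of mature nets. The order of levels therefore does not sort the genes into those of mature nets and those of the developing matrix.

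**Figure D1:**
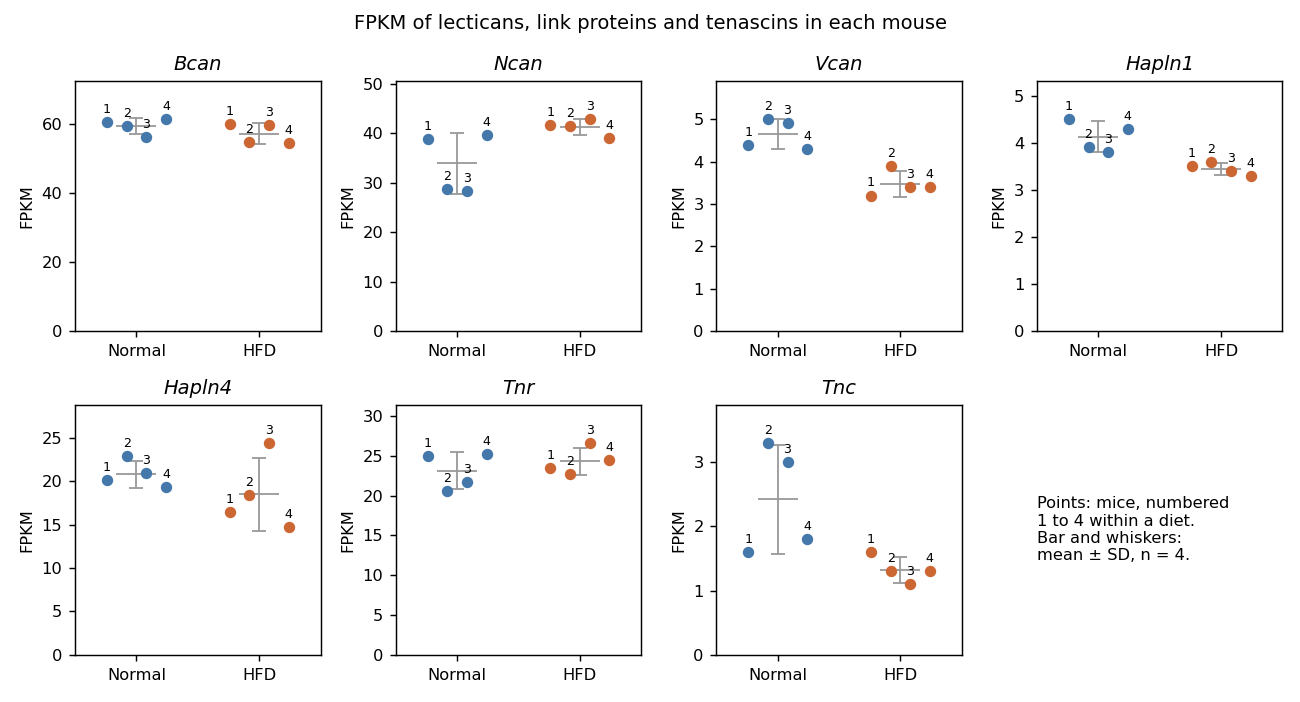
FPKM of the 7 members in each of the 4 normal and 4 HFD mice, 1 panel per gene with its own axis from 0. Points are single mice, and bars give the mean with the SD over 4 mice. The diets do not overlap for Vcan and Hapln1, and normal mice 2 and 3 hold the highest Tnc (3.3 and 3.0 FPKM) and the lowest Ncan (28.8 and 28.4 FPKM).

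Of the 7 members, 3 passed the threshold between the diets (adjusted p below 0.05 by limma with Benjamini-Hochberg adjustment over 13982 genes), namely Vcan, Hapln1 and Tnc. All 3 fell in HFD mice, and the other 4 did not pass. This is 42.9% of the members, beside 33.1% of all genes tested. Among all genes, 15.3% passed and were lower in HFD mice, and 17.7% passed and were higher. One member, Tnc, also changed by over 1.5 times, as did 7.13% of all genes. For 2 members, Vcan and Hapln1, the values of the diets did not overlap, as for 31.9% of all genes. The median log2 fold change of the members was −0.19, beside 0.0031 for all genes, and their median absolute change was 0.25, beside 0.17. With so many genes past the threshold, the share of members called lies near that of all genes and is not read as a result about the net genes.

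Among the lecticans, only Vcan passed the threshold, and its level fell by 25.3% of the normal mean. Versican is the lectican of the early brain matrix and of white matter, with splice forms that differ in the number of chondroitin sulfate chains. Vcan was at 4.4, 5.0, 4.9 and 4.3 FPKM in normal mice 1 to 4 and at 3.2, 3.9, 3.4 and 3.4 FPKM in HFD mice 1 to 4. Every normal mouse was above every HFD mouse, with normal mice 2 and 3 highest. The means were 4.65 ± 0.351 FPKM (SD, n = 4) and 3.48 ± 0.299 FPKM (SD, n = 4). The log2 fold change of HFD over normal mice was −0.41 (standard error 0.09, 95% interval −0.61 to −0.21, limma adjusted p = 0.00774). Vcan passed the threshold in each of the 8 fits that left out 1 mouse, with log2 fold changes of −0.47 to −0.37. Without both normal mice 2 and 3 it was at −0.32 and no longer passed (limma adjusted p = 0.0684). The values are per gene, so its 9 annotated transcripts cannot be told apart.

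Ncan, a lectican most abundant before adulthood, had a higher mean in HFD mice but did not pass the threshold. It was at 38.8, 28.8, 28.4 and 39.6 FPKM in normal mice and at 41.7, 41.5, 42.8 and 39.0 FPKM in HFD mice. Normal mice 1 and 4 lay close to the HFD mice, and only normal mice 2 and 3 lay well below them. The means were 33.9 ± 6.13 and 41.3 ± 1.61 FPKM (SD, n = 4 each), and the log2 fold change was 0.30 (standard error 0.11, 95% interval 0.05 to 0.55, limma adjusted p = 0.0648). The coefficient of variation was 18.1% in normal and 3.89% in HFD mice. Without normal mice 2 and 3 the log2 fold change was 0.07 (limma adjusted p = 0.35). Leaving out normal mouse 1 or normal mouse 4 alone brought Ncan past the threshold, with a limma adjusted p as low as 0.0232.

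Bcan, the most abundant lectican of the adult brain and made by astrocytes and neurons, was nearly level. Its values were 60.5, 59.4, 56.2 and 61.4 FPKM in normal mice and 60.0, 54.7, 59.8 and 54.4 FPKM in HFD mice. The diets overlapped throughout. Means were 59.4 ± 2.27 and 57.2 ± 3.09 FPKM (SD, n = 4 each), and the log2 fold change was −0.05 (standard error 0.05, 95% interval −0.17 to 0.06, limma adjusted p = 0.438). It varied least of the 7 members among normal mice, with a coefficient of variation of 3.82%. The log2 fold change was −0.09 without normal mice 2 and 3 (limma adjusted p = 0.292).

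Hapln1, the link protein that joins lecticans to hyaluronan in nets and in cartilage, fell by 16.4% of the normal mean. It was at 4.5, 3.9, 3.8 and 4.3 FPKM in normal mice and at 3.5, 3.6, 3.4 and 3.3 FPKM in HFD mice. The diets did not overlap, but the gap between the lowest normal mouse (3.8) and the highest HFD mouse (3.6) was close to the rounding of 0.1. Means were 4.13 ± 0.330 and 3.45 ± 0.129 FPKM (SD, n = 4 each). The log2 fold change was −0.25 (standard error 0.08, 95% interval −0.43 to −0.07, limma adjusted p = 0.0405). The call was narrow: it remained in 1 of the 8 fits that left out 1 mouse (without normal mouse 3), where the limma adjusted p ranged from 0.0407 to 0.0962. Hapln1 differs from Vcan and Tnc in that normal mice 2 and 3 had the lowest of the normal values. Without these mice its log2 fold change was −0.34 and passed (limma adjusted p = 0.0347).

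Hapln4, the link protein that pairs with brevican at perisomatic synapses, did not pass the threshold. It was at 20.1, 22.9, 20.9 and 19.3 FPKM in normal mice and at 16.4, 18.4, 24.4 and 14.7 FPKM in HFD mice. HFD mouse 3 was above every normal mouse and the other 3 HFD mice were below every normal mouse. Means were 20.8 ± 1.55 and 18.5 ± 4.23 FPKM (SD, n = 4 each), and the log2 fold change was −0.19 (standard error 0.14, 95% interval −0.50 to 0.11, limma adjusted p = 0.296). Without HFD mouse 3 the log2 fold change was −0.34 and passed the threshold (limma adjusted p = 0.0239), and without HFD mouse 4 it was −0.09 (limma adjusted p = 0.605). Without normal mice 2 and 3 it was −0.12 (limma adjusted p = 0.661).

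Tnc, which encodes tenascin-C, a glycoprotein of the developing brain that adult astrocytes keep at low levels, had the largest log2 fold change of the members. It was at 1.6, 3.3, 3.0 and 1.8 FPKM in normal mice and at 1.6, 1.3, 1.1 and 1.3 FPKM in HFD mice. Normal mouse 1 and HFD mouse 1 shared the value of 1.6, and the high normal mean came from normal mice 2 and 3, the mice with the highest cerebellar and thalamic markers. Means were 2.43 ± 0.850 and 1.33 ± 0.206 FPKM (SD, n = 4 each), and the log2 fold change was −0.77 (standard error 0.23, 95% interval −1.30 to −0.25, limma adjusted p = 0.0315). At these levels the rounding and the added constant of 0.1 make the change approximate. The call was lost in 5 of 8 fits that left out 1 mouse (normal mouse 2 or 3, or HFD mouse 2, 3 or 4), where the largest limma adjusted p was 0.0817. Without both normal mice 2 and 3 the log2 fold change was −0.35 (limma adjusted p = 0.213).

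Tnr, which encodes tenascin-R, the oligodendrocyte and interneuron product that cross-links lecticans in the net, did not pass the threshold. Its values were 24.9, 20.6, 21.7 and 25.2 FPKM in normal mice and 23.4, 22.7, 26.6 and 24.4 FPKM in HFD mice. The lowest values were again those of normal mice 2 and 3, and the diets overlapped. Means were 23.1 ± 2.30 and 24.3 ± 1.70 FPKM (SD, n = 4 each), and the log2 fold change was 0.07 (standard error 0.08, 95% interval −0.10 to 0.25, limma adjusted p = 0.491). The sign turned without these mice, to −0.05 (limma adjusted p = 0.656).

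The fits side by side show how far the members depend on normal mice 2 and 3, which had the highest cerebellar and thalamic markers. The fits do not remove the striatal difference, as normal mice 1 and 4 were at 344.7 and 184.2 FPKM of summed striatal markers, above all HFD mice. Leaving out normal mice 2 and 3 does not remove the cerebellar difference either. Normal mouse 4 was at 60.9 FPKM of summed cerebellar markers, beside 9.8 to 12.8 FPKM in HFD mice. Without normal mice 2 and 3, 1 of 7 members passed the threshold, Hapln1, and 2736 of 13904 genes tested did (19.7%). A call lost there can also come from the smaller normal group. With the cerebellar marker level of each mouse as a covariate, no member passed by limma and 284 genes did (2.03%). The cerebellar sum was above those of the HFD mice in every normal mouse, so the covariate partly overlaps with the diet. The standard error of every member was larger with the covariate, 0.16 beside 0.09 for Vcan. A lost call is therefore not by itself a smaller change. In that fit the log2 fold change was −0.24 for Vcan (limma adjusted p = 0.428) and −0.47 for Hapln1 (limma adjusted p = 0.0967), while Ncan (−0.15), Tnr (−0.15) and Tnc (0.10) took the opposite sign. Vcan, Hapln1, Bcan and Hapln4 were below 0 in all 3 fits.

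**Figure D2:**
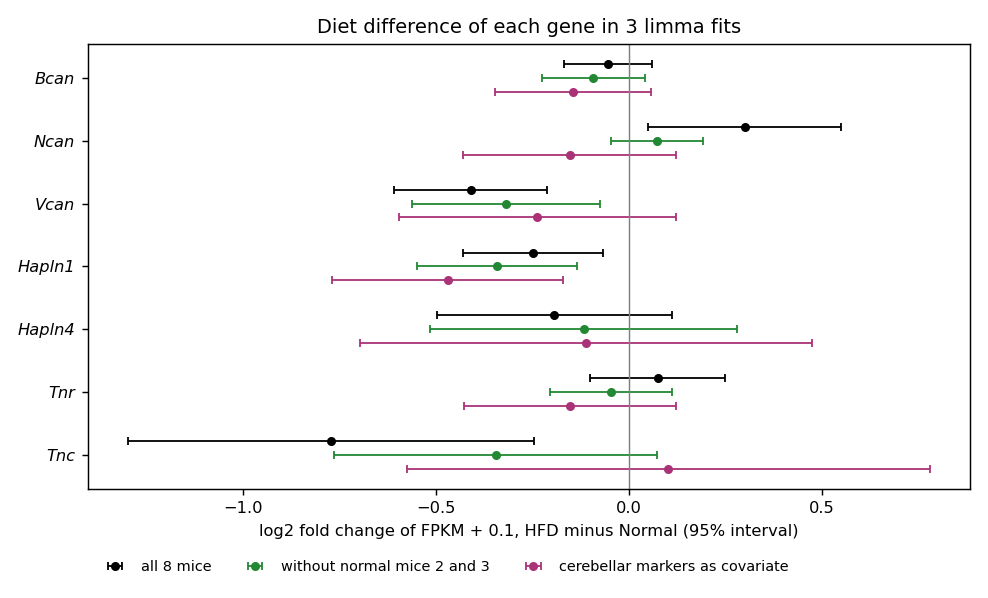
Log2 fold change of HFD over normal mice for the 7 members, with 95% intervals, in the fit on all 8 mice, without normal mice 2 and 3, and with cerebellar markers as a covariate. Vcan lies at −0.41, −0.32 and −0.24 and Hapln1 at −0.25, −0.34 and −0.47, while Tnc moves from −0.77 to 0.10.

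The balance among the lecticans was set out as shares of the summed FPKM of Bcan, Ncan and Vcan, which was 89.5 to 105.3 FPKM in normal and 96.8 to 106.0 FPKM in HFD mice. The share of Ncan was 37.4, 30.9, 31.7 and 37.6% in normal mice and 39.8, 41.5, 40.4 and 40.3% in HFD mice. That of Bcan was 58.3, 63.7, 62.8 and 58.3% in normal mice and 57.2, 54.6, 56.4 and 56.2% in HFD mice. That of Vcan was 4.08 to 5.48% in normal and 3.05 to 3.90% in HFD mice. Each of the 3 shares was without overlap between the diets, Ncan higher and Bcan and Vcan lower in HFD mice, with no test run. The shares are parts of the same sum, so a higher share of Ncan lowers the others and they are not separate results. Bcan FPKM itself overlapped between the diets (log2 fold change −0.05, limma adjusted p = 0.438). Among all single genes, 31.9% were without overlap. Normal mice 1 and 4 lay nearest to the HFD mice in the shares of Bcan and Ncan, at 58.3% beside 57.2% for Bcan in normal mouse 1 and HFD mouse 1. The ratio of Ncan to Bcan was 0.485 to 0.645 in normal and 0.695 to 0.759 in HFD mice. In normal mice 1 and 4 alone the share of Ncan, 37.4 and 37.6%, was below the lowest HFD mouse at 39.8%, and these mice also had higher summed striatal markers (344.7 and 184.2 FPKM) than the HFD mice (50.3 to 60.6 FPKM), whose part in the shares was not tested. Acan is not in these sums.

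**Figure D3:**
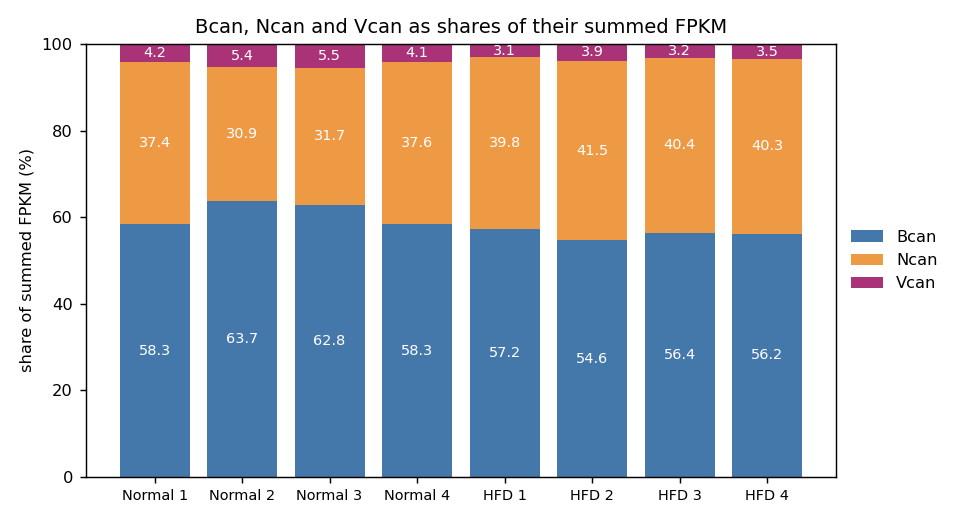
Share of each lectican in the summed FPKM of Bcan, Ncan and Vcan (percent), 1 bar per mouse, with Acan not included. Ncan takes 30.9 to 37.6% in normal mice and 39.8 to 41.5% in HFD mice.

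The normal mice with the highest cerebellar and thalamic markers were the ones that spread the normal group for Ncan, Tnr, Vcan and Tnc. Normal mice 2 and 3 were the lowest of the 4 normal mice in Ncan, Tnr, Hapln1 and the excitatory neuron marker sum, and the highest in Vcan, Tnc, Hapln4 and the interneuron marker sum. Pvalb, the calcium-binding protein of the neurons that most nets enclose and also of cerebellar Purkinje cells, was at 50.1, 140.3, 145.8 and 60.5 FPKM in normal mice and at 33.4 to 55.6 FPKM in HFD mice. The 7 fast-spiking and GABAergic interneuron markers summed to 256.4 to 394.9 FPKM in normal and 220.8 to 270.8 FPKM in HFD mice, and 4 of the 7 fell by limma. Those 4 were Pvalb, Gad1, Gad2 and Slc32a1. Kcnc2 (log2 fold change 0.09, limma adjusted p = 0.22), Kcnc1 (−0.06, limma adjusted p = 0.676) and Syt2 (−0.53, limma adjusted p = 0.239) did not pass. Because bulk tissue was measured, fewer cells of a type, less RNA per cell and a different share of tissue from outside the cortex cannot be told apart. Striatal and cerebellar marker sums were also higher in every normal mouse than in the HFD mice. Their part in the interneuron markers was not tested.

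**Figure D4:**
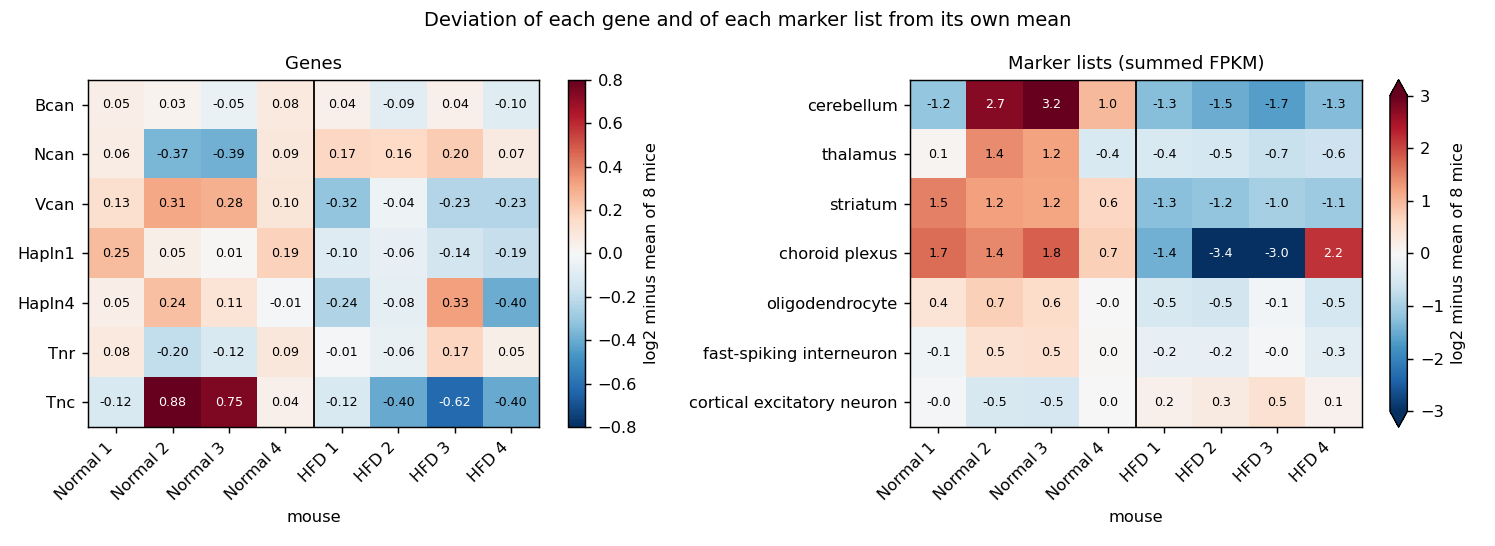
Log2 levels of the 7 members in each mouse, centred on the mean of each gene, beside the summed levels of 7 marker lists in the same mice, centred in the same way. Normal mice 2 and 3 stand lowest in Ncan and highest in Tnc, where the cerebellar marker sums are 206.8 and 285.2 FPKM.

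Markers of the cells that make the net components moved unequally. The 6 oligodendrocyte markers all fell by limma, with sums of 2019.1 to 3338.7 FPKM in normal and 1396.4 to 1937.4 FPKM in HFD mice, while Tnr, which oligodendrocytes express, did not pass. The 5 oligodendrocyte precursor markers summed to 67.0 to 77.8 FPKM in normal and 61.6 to 69.7 FPKM in HFD mice, with 2 higher and 1 lower. Astrocyte markers summed to 689.1 to 713.6 and 682.4 to 724.3 FPKM, with 1 of 6 higher and 2 lower. Of the other sources of matrix RNA, 3 of 5 meningeal fibroblast markers fell (15.0 to 19.7 and 11.3 to 14.7 FPKM summed), as did 1 of 3 endothelial markers (39.2 to 42.4 and 30.0 to 35.8 FPKM), and no microglial marker of 4 passed by limma (93.6 to 113.0 and 98.2 to 106.0 FPKM). The part of these cells in the levels of Vcan, Hapln1 and Tnc was not tested.

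Beyond the members, 62 further genes of net assembly were listed in 6 groups, of which 48 have a row and passed the filter. By limma, 18 of the 48 passed the threshold (37.5%, beside the 33.1% of all genes), with 12 higher and 6 lower in HFD mice. Their median log2 fold change was 0.0308. Leaving out normal mice 2 and 3, 10 of these 18 calls remained, namely Xylt1, Chsy3, Adamts1, Adamts4, Timp2, Rtn4r, Ptprs, Itgb1, Cntn1 and Cspg4. With the cerebellar covariate 1 call remained, Timp2. Some log2 fold changes stayed near those of the fit on all 8 mice. They were −0.61 for Adamts1, −0.34 for Itgb1, −0.24 for Chst11, −0.18 for Cntn1 and 0.21 for Cemip. Others shrank, to 0.13 for Chsy3, 0.05 for Rtn4rl2, 0.28 for Rtn4r, 0.11 for Chpf2 and 0.02 for Nptx2. Xylt1 shrank to 0.49, Adamts4 to −0.54, Otx2 to −0.33, Ptprs to 0.11, Ptprf to 0.12 and Cspg4 to 0.26. The sign of Cspg5 turned, to −0.06.

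Of the 13 enzymes that build chondroitin sulfate chains, 3 rose, none fell and 10 did not pass by limma. Xylt1, the xylosyltransferase that starts the chain on the core protein, was at 6.2, 5.7, 5.2 and 6.9 FPKM in normal mice and at 9.9, 9.8, 9.9 and 9.7 FPKM in HFD mice. The diets were far apart for Xylt1, which rose by 0.71 on the log2 scale (standard error 0.08, limma adjusted p = 0.000793). Chsy3, a chondroitin synthase that extends the chain, rose by 0.64 on the log2 scale (7.25 ± 1.45 to 11.2 ± 0.712 FPKM, limma adjusted p = 0.00565). Chpf2, a polymerizing factor, rose by 0.32 (limma adjusted p = 0.0158). Among 4 sulfotransferases with a row of 8 listed, 1 fell and 3 did not pass, the one being Chst11, which sulfates the chain, with a log2 fold change of −0.24 (limma adjusted p = 0.0176).

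Of the 7 proteases and inhibitors with a row, 2 fell, 1 rose and 4 did not pass by limma. Adamts4, which cleaves lecticans and is made in the brain largely by oligodendrocytes, was at 9.6, 11.1, 11.6 and 7.2 FPKM in normal mice and at 5.5, 5.0, 6.9 and 4.9 FPKM in HFD mice. Its highest HFD value, 6.9, was close to its lowest normal value, 7.2, and the log2 fold change was −0.80 (standard error 0.16, limma adjusted p = 0.00517). Adamts1, another lectican-cleaving protease, fell by 0.63 on the log2 scale (5.23 ± 0.574 to 3.33 ± 0.222 FPKM, limma adjusted p = 0.00184). Timp2, an inhibitor of matrix metalloproteases, was at 30.8, 32.8, 32.6 and 35.7 FPKM in normal mice and at 50.8, 51.5, 44.0 and 53.5 FPKM in HFD mice, and it rose by 0.60 on the log2 scale (standard error 0.07, limma adjusted p = 0.000775). The fall of Adamts4 stands beside the fall of all 6 oligodendrocyte markers, and the part of these cells in it was not tested.

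Of the 9 receptors of chondroitin sulfate or tenascins, 4 rose, 2 fell and 3 did not pass by limma. The Nogo receptor genes Rtn4r and Rtn4rl2 rose by 0.67 (29.0 ± 4.50 to 45.9 ± 4.98 FPKM, limma adjusted p = 0.0032) and 0.78 (7.33 ± 2.20 to 12.3 ± 1.78 FPKM, limma adjusted p = 0.0152). Ptprs and Ptprf, receptor phosphatases that bind chondroitin sulfate, rose by 0.29 and 0.20. Itgb1, an integrin subunit, fell by 0.37 on the log2 scale (limma adjusted p = 0.00113), and Cntn1, the axonal contactin that binds Tnr, fell by 0.19 (limma adjusted p = 0.0091). Markers of excitatory neurons, which express the Nogo receptors, were also higher in HFD mice (5 of 6 by limma). The part of these cells in the receptor levels was not tested. Rtn4rl2 was at 0.41 without normal mice 2 and 3 and no longer passed (limma adjusted p = 0.0635).

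Among 9 other proteoglycans and net-binding proteins, 3 rose, 1 fell and 5 did not pass by limma. Cspg4, the NG2 proteoglycan of oligodendrocyte precursors, rose from 3.05 ± 0.129 to 3.98 ± 0.0957 FPKM (log2 fold change 0.37, limma adjusted p = 0.00493). Cspg5 (0.30) and Nptx2 (0.39), a synaptic pentraxin that gathers at nets, rose as well. Otx2, a homeoprotein that the choroid plexus releases and that nets take up, was at 1.4, 2.4, 3.3 and 0.9 FPKM in normal mice and at 0.3, 0.2, 0.5 and 1.7 FPKM in HFD mice, with a log2 fold change of −1.66 (limma adjusted p = 0.047). The choroid plexus markers summed to 661.7, 559.4, 719.4 and 340.4 FPKM in normal mice and 75.9, 20.3, 26.0 and 935.9 FPKM in HFD mice, so that HFD mouse 4 was the highest HFD mouse in both. Cspg5, Nptx2, Otx2 and Cemip each passed in 2 of the 8 fits that left out 1 mouse. Of the 6 hyaluronan and link protein genes with a row of 11 listed, 1 rose, Cemip (0.23), which degrades hyaluronan, and Hapln2 was at −0.12 (limma adjusted p = 0.591).

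**Figure D5:**
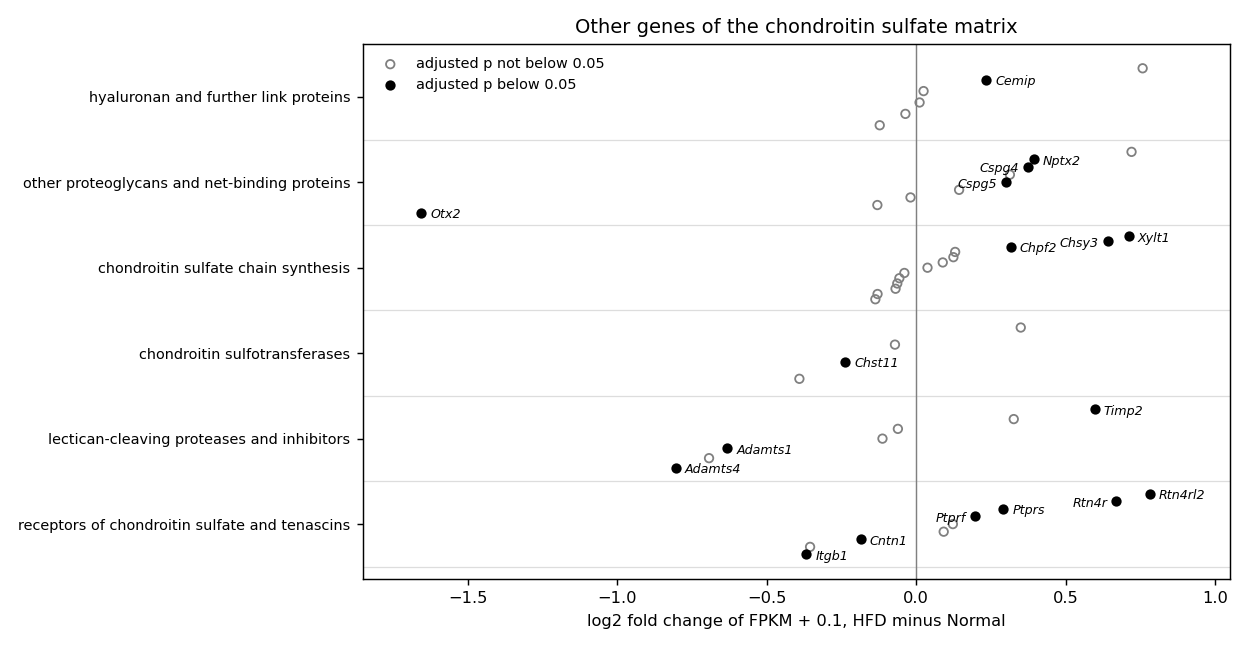
Log2 fold change of HFD over normal mice for the 48 other matrix genes in 6 groups. Filled points are genes past the limma threshold, and open points are the others. Xylt1 (0.71), Chsy3 (0.64), Rtn4r (0.67) and Timp2 (0.60) rise, while Adamts4 (−0.80) and Adamts1 (−0.63) fall.

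For each member, the gene with the most similar pattern over the 8 mice was sought among all genes tested, by the root mean square difference of log2 values centred on each gene. For Vcan this was Jam2, an endothelial junction molecule (0.0412, where the median gene was at 0.270). For Hapln1 it was Gde1 (0.0347, median 0.211) and for Hapln4 the potassium channel gene Kcna1 (0.0706, median 0.269). Ncan was nearest to Basp1, a neuronal growth protein (0.0411, median 0.264), Bcan to Ube2m (0.0217, median 0.163) and Tnr to Scyl3 (0.0300, median 0.190). Tnc was nearest to Lrig1, at 0.137 (median 0.527). The differences are not scaled, so they are larger for genes that vary more between mice, as Tnc did. The nearest of all genes lies below the median by choice, so the medians only give the scale. Basp1 was lowest in normal mice 2 and 3, at 129.8 and 124.4 FPKM, and Lrig1 highest there, at 17.6 and 18.6 FPKM, as Ncan and Tnc were.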

How the data were processed

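Total RNA of the cortex was depleted of rRNA and sequenced as paired-end stranded libraries, 1 per mouse (4 Normal, 4 HFD). Per the paper and the submitters' processing notes, the authors used FastQC, Trimmomatic, STAR (mm10) and Cuffnorm (GENCODE M17, GRCm38.p6). Their versions were not given in the sources used here. FPKM values were deposited by the authors, normalized for depth and length, filtered on a mean below 1 or any 0, and rounded to 0.1. Depth is therefore unknown and no counting interval is given. The table holds 13996 genes, of which 14 still lie outside that filter and were left out of the fit. Salmon, edgeR and circRNA values were not used here.

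From the deposited FPKM, log2(FPKM + 0.1) was fitted with limma 3.58.1 in R 4.3.3 (variance trend, no covariate, two-sided) over 13982 genes, with Benjamini-Hochberg adjustment over all of them and a threshold of 0.05. Fold changes are on this scale, which understates those of low genes. Tables were made with Python 3.11.15, numpy 2.4.6 and pandas 2.3.3, and figures with matplotlib 3.10.9. The fit was tested on simulated data. Positions come from GENCODE M21, and promoters from RefSeq, which held no entry for Hapln4.

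The members and lists were chosen with earlier results of these data known. Named were all members, up to 6 genes past the threshold per matrix list by size of change, the gene nearest in pattern to each member, and the marker lists. The alternatives were other added constants, filters, scalings, no variance trend, a replicate block, a cerebellar covariate, a minimum change of 1.5 times and leaving out mice.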

Additional observations from a re-analysis of the deposited data

How the results depend on the processing

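The count of members past the limma threshold, 3 in the report, was 3 with an added constant of 1 or 0.01, with no filter, with median-ratio rescaling, with quantile normalization and with no variance trend. It was 0 with a mean of at least 5 FPKM, where 4 members were tested and Vcan, Hapln1 and Tnc were left out by the filter itself, 0 with the cerebellar covariate, 1 without both normal mice 2 and 3 (chosen after seeing the data), 1 with a minimum change of 1.5 times, and 1 to 3 with each mouse left out. Of the 3 member calls of the report, 1 or 2 were kept with each mouse left out. Ncan entered the count, as higher, without normal mouse 1 or 4, and Hapln4 entered it without HFD mouse 3. The count of other matrix genes, 18, became 1 with the covariate, 11 without both mice and 8 with the minimum change, and was 14 to 20 with each mouse left out. Of those 18 calls, 14 to 17 were kept with each mouse left out, and 10 without both mice. With the covariate the lost calls included genes whose log2 fold changes stayed near those of the report, such as Adamts1 (−0.61) and Itgb1 (−0.34). They also included genes whose changes shrank, such as Chsy3 (0.13) and Rtn4rl2 (0.05). Over all genes, 4626 passed, and 284, 2736 and 997 did under the same 3 settings, with 3292 to 4618 when each mouse was left out. The sign turned with the covariate for Ncan (−0.15), Tnr (−0.15), Tnc (0.10), Cspg5 (−0.0648), Basp1 (−0.0767), Scyl3 (−0.0906) and Lrig1 (0.47), and without both mice for Tnr (−0.0477). None of these genes passed the limma threshold in the fit where its sign turned. The cause was not tested.

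The labels state no pairing of same-numbered mice. The deviations of same-numbered mice from their diet means had correlations of −0.11 to −0.03, which cannot settle whether such mice were handled together. With the replicate block, 1 member passed (Vcan, limma adjusted p = 0.0189), against 0.0878 for Hapln1 and 0.0702 for Tnc, and 3390 of all genes did. Unknown depth, rounding to 0.1 and means under 5 FPKM limit Vcan, Hapln1 and Tnc most.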

Other observations

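Among ratios of members that the report does not use, the diets overlapped in each case, and no test was run. The ratio of Hapln1 to Hapln4 was 0.170 to 0.224 in normal and 0.139 to 0.225 in HFD mice. That of Tnc to Tnr was 0.0643 to 0.16 in normal and 0.0414 to 0.0684 in HFD mice. Vcan and Hapln1, neighbours on chromosome 13, were in a ratio of 0.978 to 1.29 in normal and 0.914 to 1.08 in HFD mice. Summed over the 7 members, FPKM was 138.9 to 155.9 in normal and 140.5 to 161.5 in HFD mice.

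Some genes of the matrix lists changed by more than many that passed, without passing. These were named after their values were seen. Cd44, the hyaluronan receptor, had a log2 fold change of 0.76 (limma adjusted p = 0.119), Dcn, a small leucine-rich proteoglycan of fibroblasts, 0.72 (limma adjusted p = 0.0635), and Timp4, an inhibitor of metalloproteases, −0.69 (limma adjusted p = 0.0672).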
